A study of Mus musculus with 8 samples.

Results

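The 33 genes described here are type I interferon-stimulated genes, chosen by gene symbol, out of 26709 genes measured in 8 mouse mammary tumours. All 33 were measured, and all 33 passed a filter on low counts that kept 19718 genes. The tumours grew from EMT6, a mouse mammary carcinoma line of 1 origin, in syngeneic Balb/c mice whose genotype is given as WT. Control mice (4 libraries) received IgG, and treated mice (4 libraries) received GrB-Fc-KS49, named Granzyme-B in the labels, in which human granzyme B (a protease of cytotoxic granules) is fused to a part that targets the surface protein EMP2. Both were given 3 times within 10 days. The dose, the age of the mice and the time of tumour removal were not given in the sources used here. Neither was whether each tumour came from its own mouse, so a p-value reflects only how far these 8 tumours differ. The RNA came from whole tumours. The labels name epithelial tumour cells, and the epithelial keratin Krt8 was at 391 to 631 CPM (counts per 1e6 counts of a library, after TMM scaling), while Epcam was at 2.73 to 16.0 CPM, Cdh1 at 4.05 to 36.9 CPM and the fibroblast collagen Col1a1 at 2113 to 5408 CPM. Epcam and Cdh1 were highest in GrB-Fc-KS49 2, whose skin markers were also the highest, and were at most 8.62 and 9.07 CPM elsewhere.

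Replicate numbers only name libraries, and total counts ran from 73.98 to 82.62 M (1e6). The title of IgG 1 and of GrB-Fc-KS49 3 ends in U, and what it stands for was not given in the sources used here. These libraries stood apart in the genes described here. They were the 2 lowest of the 8 in 33 of 33 genes, an arrangement found in 6.36% of all genes tested, so the comparison is given with and without them.

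Type I interferons, which are interferon alpha, beta and their relatives, bind a receptor built from IFNAR1 and IFNAR2. The kinases JAK1 and TYK2 then phosphorylate STAT proteins, among them STAT2, which join IRF9 to form the complex ISGF3. ISGF3 binds the interferon-stimulated response element (ISRE) in the promoters of its targets, whose products block viral replication, sense foreign nucleic acid and feed back on the pathway. Interferon lambda acts through the same complex, and interferon gamma induces many of the same genes through the gamma-activated site (GAS). In tumours the genes are known to respond to nucleic acid sensing and to interferons released by infiltrating immune cells.

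The ISRE is the site through which ISGF3 is known to act, so promoter stretches that hold its core are shown first. RefSeq promoter windows on GRCm38.p6, from 250 bases before to 50 bases after an annotated start, were found for 24 of the 33 genes by symbol. Both strands were searched for the ISRE core GAAANNGAAA, and matches may overlap. It was present in 11 of the 24 genes (45.8%), against 3.99% of 27025 gene symbols with a window. The GAS core TTCNNNGAA, which reads alike on both strands and overlaps the ISRE match in Bst2, was present in 5 of the 24 genes (20.8%), against 9.55% of all symbols. A match is a run of letters and does not show that a factor binds there. The 9 stretches below end before the annotated start, and capitals mark the ISRE core on either strand. Their places relative to the start are -98 to -37 for Isg15 (chr4:156200855-156200916, minus strand), -124 to -56 for Ifit1 (chr19:34640765-34640833, plus strand) and -142 to -93 for Ifit3 (chr19:34583387-34583436, plus strand). They are -40 to -1 for Oas1a (chr5:120907526-120907565, minus strand), -95 to -46 for Oas3 (chr5:120777705-120777754, minus strand) and -242 to -193 for Stat2 (chr10:128270256-128270305, plus strand). They are -140 to -91 for Rsad2 (chr12:26456543-26456592, minus strand), -56 to -7 for Trim30a (chr7:104465200-104465249, minus strand) and -150 to -95 for Bst2 (chr8:71537567-71537622, minus strand).
Isg15: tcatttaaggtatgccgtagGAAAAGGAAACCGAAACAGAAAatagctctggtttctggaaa
Ifit1: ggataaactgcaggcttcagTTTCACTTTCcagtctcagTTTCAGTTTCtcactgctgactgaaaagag
Ifit3: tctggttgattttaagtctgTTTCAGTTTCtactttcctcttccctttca
Oas1a: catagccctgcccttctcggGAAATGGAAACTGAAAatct
Oas3: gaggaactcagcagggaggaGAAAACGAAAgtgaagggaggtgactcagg
Stat2: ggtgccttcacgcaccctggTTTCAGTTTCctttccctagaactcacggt
Rsad2: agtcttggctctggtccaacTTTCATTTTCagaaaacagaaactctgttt
Trim30a: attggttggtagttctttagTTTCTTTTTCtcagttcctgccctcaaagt
Bst2: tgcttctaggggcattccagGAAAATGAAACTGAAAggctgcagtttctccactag

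Isg15 held 3 overlapping matches, Ifit1, Oas1a and Bst2 held 2 in the stretch shown, and Ifit3 held a further match upstream of its stretch. In Ifih1 and Eif2ak2 the match lay after the annotated start. The fitted log2 fold change of the 11 genes with a match had a median of 0.93 and ran from 0.00 in Ifih1 to 1.53 in Bst2. The 13 genes with a window and no match had a median of 0.65 and ran from -0.09 in Samd9l to 1.13 in Irf7. The ranges of the genes with and without a match overlapped.

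In the mean of the treated tumours 31 of the 33 genes were higher than in the controls, but no gene passed the test over all genes. The median log2 fold change (GrB-Fc-KS49 over IgG) was 0.83, against 0.03 over all genes tested, of which 53.2% were higher. With edgeR's quasi-likelihood test (adjusted by Benjamini-Hochberg over all genes), 0 of 33 genes had an adjusted p under 0.05, with 0% of all genes called, and the smallest adjusted p of the 33 was 0.107, for Isg15. Unadjusted p was under 0.05 for 3 genes, Isg15, Ifi35 and Bst2, which is a lower share than the 35.1% of all genes tested. DESeq2 called 2 of the 33 at an adjusted p under 0.05, Isg15 (0.0269) and Ifi35 (0.0479), against 24.1% of all genes, and limma-voom called 0 without sample weights and 0 with them, where 6.43% of all genes were called. The groups overlapped in all 33 genes, while 25.7% of all genes had no overlap, 10.3% with the treated group higher. In bulk RNA, fewer cells of a type and less RNA per cell cannot be told apart.

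The tumours of each group differed widely. The 33 genes together held 0.0843%, 0.117%, 0.152% and 0.139% of all counts in IgG 1 to 4, and 0.332%, 0.219%, 0.0744% and 0.163% in GrB-Fc-KS49 1 to 4. The treated group thus held both the highest and the lowest library of the series. Relative to the control mean, the median over the 33 genes was at a log2 ratio of 1.69, 0.94, -0.97 and 0.54 in GrB-Fc-KS49 1 to 4, and at -0.72, -0.05, 0.33 and 0.15 in IgG 1 to 4. Between the highest and the lowest library the median gene differed 5.93-fold in the treated group and 2.12-fold in the controls. Oas3 had the widest span in both groups, 25.8-fold and 4.39-fold, and Eif2ak2 the narrowest, 1.85-fold and 1.28-fold.

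**Figure D1:**
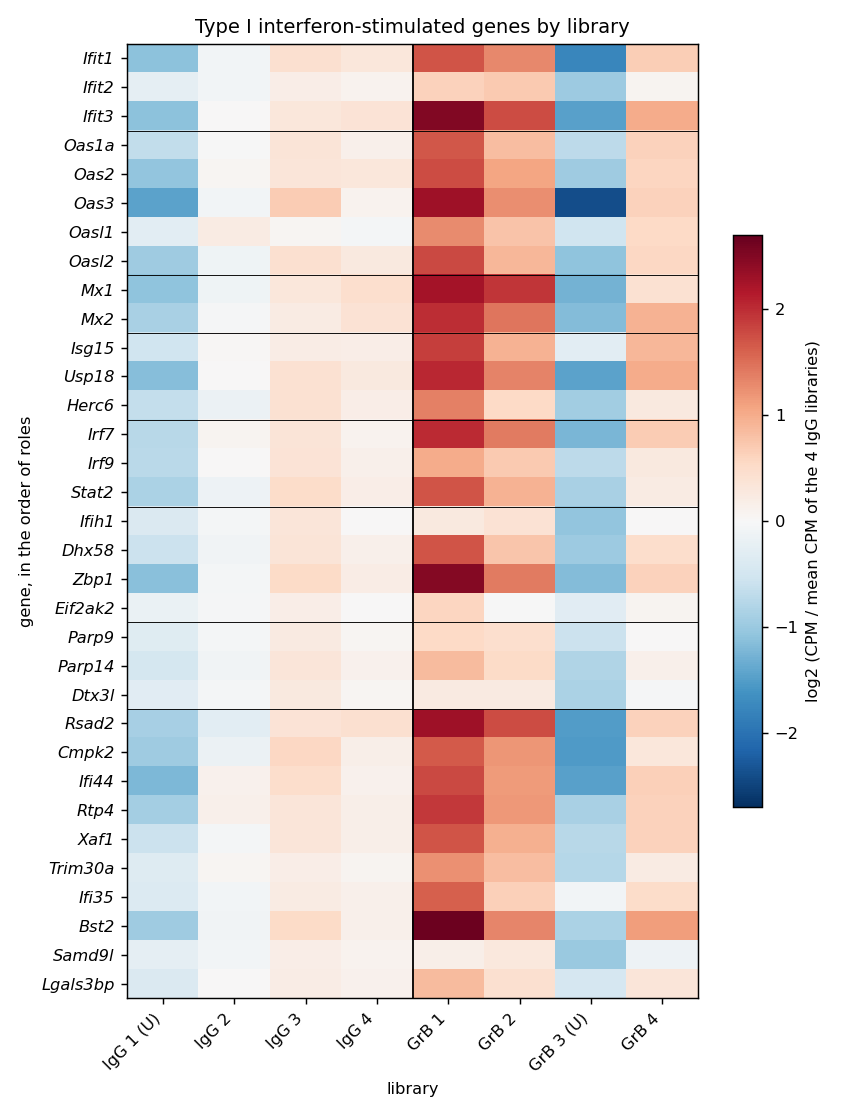
Level of each of the 33 genes (rows, grouped by role) in each of the 8 libraries (columns), as log2 of its CPM over the mean CPM of the 4 IgG libraries; red is higher and blue is lower, and U marks the libraries whose title ends in U. GrB-Fc-KS49 1 and 2 are red in nearly every row, while GrB-Fc-KS49 3 and IgG 1 are blue in all 33.

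Nearly every gene ranked the tumours alike. Among the treated libraries the order was 1, 2, 4, 3 from high to low in 28 of 33 genes, and among the controls it was 3, 4, 2, 1 in 28. GrB-Fc-KS49 3 was the lowest of the 4 treated libraries and IgG 1 the lowest control in all 33 genes, where 12.7% of all genes tested showed both. GrB-Fc-KS49 3 was below every control in 27. GrB-Fc-KS49 1 was the highest of all 8 in 29. Both GrB-Fc-KS49 1 and 2 were above every control in 29 genes, where 27.2% of all genes tested showed this, and GrB-Fc-KS49 4 was above every control in 20. For the other counts of order the share over all genes is not given here. Across the 8 libraries Pearson's r of a gene's log2 CPM with the mean of the other 32 had a median of 0.986, from 0.791 in Samd9l to 0.993 in Oasl2. The points of these correlations share their libraries, and the values are a description.

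The IFIT family encodes proteins that bind viral RNA lacking host cap methylation or hold back translation, and its genes lie close together on the plus strand of chromosome 19 on GRCm39 (Ifit2 at chr19:34528094-34553819, Ifit3 at chr19:34560931-34566131 and Ifit1 at chr19:34618271-34627409). Ifit3 was at 7.75, 16.6, 20.6 and 21.4 CPM in IgG 1 to 4 and at 94.5, 56.5, 6.01 and 33.2 CPM in GrB-Fc-KS49 1 to 4. GrB-Fc-KS49 1, 2 and 4 lay above every control and GrB-Fc-KS49 3 below every control. The group means were 47.5 ± 37.5 CPM in treated and 16.6 ± 6.25 CPM in control tumours (SD, n = 4 each), for a log2 fold change of 1.52 (SE 0.70, edgeR adjusted p = 0.157). Of its 50-base stretches 51.2% also occur in the neighbouring copy Ifit3b, so the division of reads between the 2 genes is uncertain. Ifit3b itself had a log2 fold change of 1.502. Ifit1 was at 10.7, 21.7, 31.1 and 28.3 CPM in the controls and at 74.8, 56.4, 6.75 and 36.5 CPM in the treated tumours, with the same order of treated libraries and a log2 fold change of 0.93. Ifit2 was at 24.8, 27.9, 33.3 and 31.1 CPM in the controls and at 44.9, 47.8, 14.8 and 30.8 CPM in the treated tumours. In Ifit2 GrB-Fc-KS49 2 stood above GrB-Fc-KS49 1, and GrB-Fc-KS49 4 lay within the control range. The log2 fold change of 0.24 (SE 0.32) was the smallest of the family. Without both U libraries the log2 fold changes were 1.65 for Ifit3, 1.05 for Ifit1 and 0.42 for Ifit2.

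The 2',5'-oligoadenylate synthetases make the second messenger that activates RNase L, which cleaves RNA, and the OAS-like genes are relatives of which Oasl1 is known to restrain translation of Irf7. The 5 genes lie in 2 groups on chromosome 5 (Oas2, Oas3 and Oas1a on the minus strand from 120868398 to 121045584, and Oasl2 and Oasl1 on the plus strand from 115034997 to 115075974). All 5 were higher in the treated mean, with a median log2 fold change of 0.86. Oasl1 was at 23.6, 33.4, 30.0 and 27.8 CPM in IgG 1 to 4 and at 69.6, 49.2, 19.9 and 41.8 CPM in GrB-Fc-KS49 1 to 4. It is the 1 gene of the 33 in which IgG 2 was the highest control. Oas1a was at 19.6, 30.9, 39.2 and 33.7 CPM in the controls and at 98.2, 55.3, 18.9 and 47.4 CPM in the treated tumours, with GrB-Fc-KS49 3 just below the lowest control. It had a log2 fold change of 0.83 (SE 0.44, edgeR adjusted p = 0.207), and 57.6% of its 50-base stretches also occur in Oas1g, which had a log2 fold change of 0.83. Oas2 was at 5.69, 12.4, 14.9 and 14.7 CPM in the controls and at 40.7, 25.1, 6.11 and 17.9 CPM in the treated tumours, where GrB-Fc-KS49 3 lay between IgG 1 and the other controls. Oas3, which had the widest span, was at 5.71, 14.7, 25.1 and 16.6 CPM in the controls and at 75.9, 36.8, 2.94 and 23.97 CPM in the treated tumours. Oasl2 had a log2 fold change of 0.86. Without both U libraries the 5 log2 fold changes ran from 0.82 in Oasl1 to 1.28 in Oas3.

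Mx1 and Mx2 encode dynamin-like GTPases that trap viral particles, and they lie on chromosome 16 (Mx1 at chr16:97248235-97264107 on the minus strand and Mx2 at chr16:97336508-97362100 on the plus strand). They were the least abundant of the 33 genes, by CPM and per kilobase of transcript, with 1.07 CPM per kilobase for Mx1 in the control mean. Mx1 was at 1.70, 3.37, 4.47 and 4.98 CPM in the controls and at 17.2, 13.8, 1.51 and 4.85 CPM in the treated tumours. GrB-Fc-KS49 1 and 2 stood clear of all other libraries, and GrB-Fc-KS49 4 lay within the control range. Mx2 was at 1.66, 2.98, 3.55 and 3.98 CPM in the controls and at 12.1, 8.32, 1.34 and 5.84 CPM in the treated tumours, and here GrB-Fc-KS49 4 was above every control. The log2 fold changes were 1.36 for Mx1 and 1.18 for Mx2, with standard errors of 0.68 and 0.57, and 1.48 and 1.32 without both U libraries. In both genes, as in Ifit3 and Rsad2, IgG 4 rather than IgG 3 was the highest control.

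Isg15 encodes a ubiquitin-like protein that is attached to other proteins, Usp18 the protease that removes it and also restrains the receptor, and Herc6 the ligase known to attach it in mice. Isg15 (chr4:156283912-156285253, minus strand) was at 23.0, 34.1, 38.6 and 38.0 CPM in IgG 1 to 4 and at 122, 63.9, 27.4 and 62.0 CPM in GrB-Fc-KS49 1 to 4. The treated libraries other than GrB-Fc-KS49 3 lay above every control, and GrB-Fc-KS49 3 lay between IgG 1 and IgG 2. The group means were 69.0 ± 39.4 CPM in treated and 33.4 ± 7.23 CPM in control tumours (SD, n = 4 each), for a log2 fold change of 1.05 (SE 0.40, edgeR adjusted p = 0.107). Usp18 (chr6:121222865-121247876, plus strand) was at 6.20, 13.8, 18.3 and 16.6 CPM in the controls and at 56.2, 34.8, 5.04 and 27.5 CPM in the treated tumours. Its pattern was that of Isg15 with a deeper low, since GrB-Fc-KS49 3 lay below every control, and its log2 fold change was 1.17. Herc6 (chr6:57557985-57641617, plus strand) was at 16.1, 22.2, 33.1 and 28.4 CPM in the controls and at 64.0, 36.2, 13.1 and 30.0 CPM in the treated tumours. In Herc6 GrB-Fc-KS49 4 lay within the control range, and the log2 fold change was 0.52. Leaving out both U libraries gave 1.17 for Isg15, 1.28 for Usp18 and 0.64 for Herc6. Of the Herc6 50-base stretches, 23.8% also occur in Gm45193, a noncoding gene on the same strand at 0.103 CPM.

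Irf7, Irf9 and Stat2 encode transcription factors, of which IRF9 and STAT2 are parts of ISGF3 and IRF7 drives the genes of interferon alpha. Irf7 (chr7:140842619-140846394, minus strand) was at 27.3, 48.2, 57.9 and 49.1 CPM in IgG 1 to 4 and at 185, 120.2, 19.5 and 73.9 CPM in GrB-Fc-KS49 1 to 4. All treated libraries but GrB-Fc-KS49 3 exceeded the highest control. The group means were 99.7 ± 70.3 CPM in treated and 45.6 ± 13.0 CPM in control tumours (SD, n = 4 each), for a log2 fold change of 1.13 (SE 0.57, edgeR adjusted p = 0.192). Stat2 (chr10:128106428-128128718, plus strand) was at 29.7, 48.8, 75.1 and 60.3 CPM in the controls and at 173, 102, 29.1 and 62.6 CPM in the treated tumours, and Irf9 (chr14:55841028-55847487, plus strand) at 19.7, 32.4, 42.0 and 35.4 CPM and 64.6, 53.0, 19.9 and 39.0 CPM. In both, GrB-Fc-KS49 4 lay below IgG 3, and GrB-Fc-KS49 3 lay close to IgG 1. The log2 fold changes were 0.78 and 0.45. Leaving out both U libraries gave 1.29 for Irf7, 0.87 for Stat2 and 0.51 for Irf9.

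**Figure D2:**
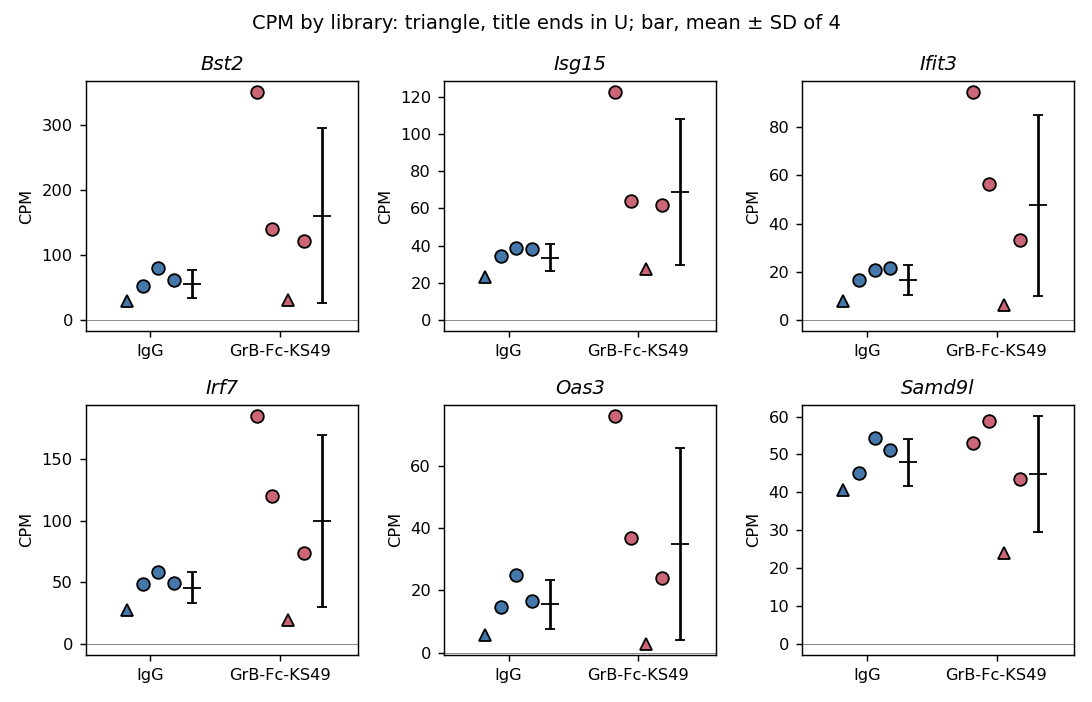
CPM of 6 genes in each library of the IgG (blue) and GrB-Fc-KS49 (red) groups, with 1 panel and its own CPM axis per gene; triangles are libraries whose title ends in U, and the bar beside each group is its mean ± SD (n = 4). In Bst2, Isg15, Ifit3, Irf7 and Oas3 GrB-Fc-KS49 1 is the highest point, and GrB-Fc-KS49 3 lies among or below the controls in all 6 panels.

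Zbp1, Dhx58, Ifih1 and Eif2ak2 encode sensors of nucleic acid: a sensor of left-handed nucleic acid that can trigger necroptosis, the RIG-I-like receptors LGP2 and MDA5, and the kinase PKR, which stops translation on double-stranded RNA. They split into genes with a wide and a narrow difference. Zbp1 (chr2:173048405-173060716, minus strand) was at 13.6, 28.9, 42.8 and 34.4 CPM in IgG 1 to 4 and at 166, 79.2, 13.2 and 46.0 CPM in GrB-Fc-KS49 1 to 4, a log2 fold change of 1.35 (SE 0.68). Dhx58 (chr11:100585710-100595097, minus strand) was at 10.8, 15.1, 20.6 and 17.8 CPM in the controls and at 52.4, 27.1, 8.15 and 22.2 CPM in the treated tumours, a log2 fold change of 0.77. In both genes GrB-Fc-KS49 3 was the lowest of the 8 and GrB-Fc-KS49 1, 2 and 4 were above every control. Eif2ak2 (chr17:79159993-79190002, minus strand) was at 63.4, 69.4, 81.1 and 71.4 CPM in the controls and at 107, 70.8, 57.6 and 74.9 CPM in the treated tumours. GrB-Fc-KS49 1 alone exceeded the controls, and this is the 1 gene in which GrB-Fc-KS49 4 was above GrB-Fc-KS49 2. Its log2 fold change of 0.12 became -0.07 without GrB-Fc-KS49 1. Ifih1 (chr2:62426142-62476599, minus strand) was at 25.4, 32.1, 41.5 and 33.5 CPM in the controls and at 40.0, 43.2, 15.8 and 33.6 CPM in the treated tumours. Its group means were 33.1 ± 12.2 CPM in treated and 33.1 ± 6.63 CPM in control tumours (SD, n = 4 each), and its log2 fold change of 0.00 (standard error 0.29) took either sign among the alternative settings. The 4 genes stood at 1.46 (Zbp1), 0.92 (Dhx58), 0.19 (Eif2ak2) and 0.12 (Ifih1) without both U libraries.

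Parp9, Dtx3l and Parp14 neighbour each other on chromosome 16 (Parp14 at chr16:35653244-35691914 and Dtx3l at chr16:35746881-35759521 on the minus strand, Parp9 at chr16:35758840-35792975 on the plus strand). PARP9 and DTX3L form a complex that joins ADP-ribosylation to ubiquitination, and PARP14 is an ADP-ribosyltransferase. These genes differed least between the groups, with a median log2 fold change of 0.17. Parp14 was at 59.2, 78.1, 104 and 89.7 CPM in IgG 1 to 4 and at 149.6, 118, 46.9 and 90.6 CPM in GrB-Fc-KS49 1 to 4. Parp9 was at 64.8, 78.1, 96.1 and 84.0 CPM in the controls and at 117, 111, 54.2 and 81.3 CPM in the treated tumours, and Dtx3l at 64.0, 76.1, 95.6 and 82.1 CPM and 93.4, 94.1, 44.2 and 78.1 CPM. In all 3 genes GrB-Fc-KS49 3 was the lowest library and GrB-Fc-KS49 4 lay within the control range. In Dtx3l even GrB-Fc-KS49 1 and 2 did not exceed IgG 3. Parp9 and Dtx3l overlap by 682 bases on opposite strands, and whether counting used strand was not given, so reads there cannot be assigned to either. The log2 fold changes were 0.29 for Parp14, 0.17 for Parp9 and -0.04 for Dtx3l, and 0.39, 0.26 and 0.06 without both U libraries.

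The other 10 genes encode effectors of other kinds, and they held both ends of the range. Bst2, or tetherin, holds budding virus at the cell surface and is also expressed by plasmacytoid dendritic cells. Bst2 (chr8:71986899-71990100, minus strand) was at 28.8, 52.5, 80.3 and 61.6 CPM in IgG 1 to 4 and at 351, 139, 30.9 and 122 CPM in GrB-Fc-KS49 1 to 4. GrB-Fc-KS49 1 was 2.65 log2 units above the control mean, the highest such value of any of the 33 genes in any library. The group means were 161 ± 135 CPM in treated and 55.8 ± 21.4 CPM in control tumours (SD, n = 4 each), for a log2 fold change of 1.53 (SE 0.64, edgeR adjusted p = 0.130). It was also the most abundant of the 33 genes per kilobase of transcript, with 70.5 CPM per kilobase in the control mean. Lgals3bp, a secreted scavenger receptor-like glycoprotein (chr11:118283577-118292918, minus strand), was the most abundant by CPM, at 118, 155, 178 and 167 CPM in the controls and 279, 209.7, 114 and 193 CPM in the treated tumours. Its log2 fold change was 0.36. Without both U libraries Bst2 stood at 1.65 and Lgals3bp at 0.44.

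Ifi35, a protein that binds the partner protein NMI (chr11:101339233-101349524, plus strand), was at 17.6, 21.6, 26.6 and 25.2 CPM in the controls and at 69.8, 35.7, 21.6 and 31.9 CPM in the treated tumours. It had the smallest gap of GrB-Fc-KS49 3 to the control mean, -0.07 log2 units, and a log2 fold change of 0.81 (SE 0.33, edgeR adjusted p = 0.127). Rsad2, or viperin, makes a chain-terminating nucleotide that stops viral polymerases, and it lies beside Cmpk2, a nucleotide kinase, on chromosome 12 (Rsad2 at chr12:26492745-26506451 on the minus strand and Cmpk2 at chr12:26519203-26529836 on the plus strand). Rsad2 was at 14.0, 21.2, 33.5 and 34.6 CPM in the controls and at 125, 87.1, 9.05 and 39.7 CPM in the treated tumours, and Cmpk2 at 6.19, 10.7, 17.6 and 13.4 CPM and 37.6, 27.5, 4.15 and 14.7 CPM. GrB-Fc-KS49 3 was the lowest library in both. The log2 fold changes were 1.34 and 0.81. Samd9l, a restriction factor that stops translation (chr6:3372257-3399572, minus strand), was at 40.7, 45.2, 54.4 and 51.2 CPM in the controls and at 53.1, 58.8, 23.98 and 43.6 CPM in the treated tumours. It had the lowest log2 fold change of the 33 genes, -0.09 (SE 0.25), and GrB-Fc-KS49 2 rather than 1 was its highest library. Without both U libraries Ifi35 stood at 0.90, Rsad2 at 1.497, Cmpk2 at 0.93 and Samd9l at 0.04. Rtp4, Ifi44, Xaf1 (a partner of the apoptosis inhibitor XIAP) and Trim30a (a ubiquitin ligase of the TRIM family) had log2 fold changes of 1.02, 0.93, 0.87 and 0.56, and all 4 kept the usual order of libraries. Rtp4 overlaps Masp1 by 525 bases on the opposite strand and shares 13.7% of its 50-base stretches with Gm45338.

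The libraries whose titles end in U were low throughout the list. With treatment in the model, the coefficient of the suffix was negative in 33 of 33 genes, with a median of -1.32 on the log2 scale against -0.02 over all genes. It ran from -2.63 in Oas3 to -0.38 in Eif2ak2. Unadjusted p was under 0.05 for 32 genes, all but Eif2ak2, against 10.6% of all genes and 5.85% in the lower direction. This test was added after the data were seen, when the U libraries were already known to be the lowest in these genes. The count therefore restates that order and is no separate support for it. The 33 genes rose and fell together, so their p-values are not independent. By edgeR with Benjamini-Hochberg adjustment 0 of the 33 passed, the smallest adjusted p being 0.134 for Irf9, and 1 gene of all those tested (0.00507%) passed, Lrrc17, named after its values were seen. With 1 such library in each group, the suffix and whatever else sets these tumours apart cannot be told apart.

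Without both U libraries all 33 genes had a higher mean in treated tumours. The median log2 fold change was 0.95 against 0.02 over all genes. The 3 treated and 3 control libraries did not overlap in 20 of the 33 genes, all higher, where 16.2% of all genes did so in this direction. Unadjusted p was under 0.05 for 25 genes, against 27.0% of all genes tested and 13.9% in the higher direction, and 0 passed by edgeR's adjusted p (smallest 0.162, shared by several genes). The libraries left out were the lowest treated and the lowest control library in all 33 genes. These counts thus follow in part from the choice of libraries and are a description. With the suffix as a covariate in place of leaving libraries out, 13 genes had an unadjusted p under 0.05, against 35.4% of all genes, and the smallest adjusted p was 0.0719. Between the U libraries alone, GrB-Fc-KS49 3 against IgG 1, the log2 ratio had a median of -0.26 and ran from -0.96 in Oas3 to 0.30 in Ifi35, with no replicate to test it.

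**Figure D3:**
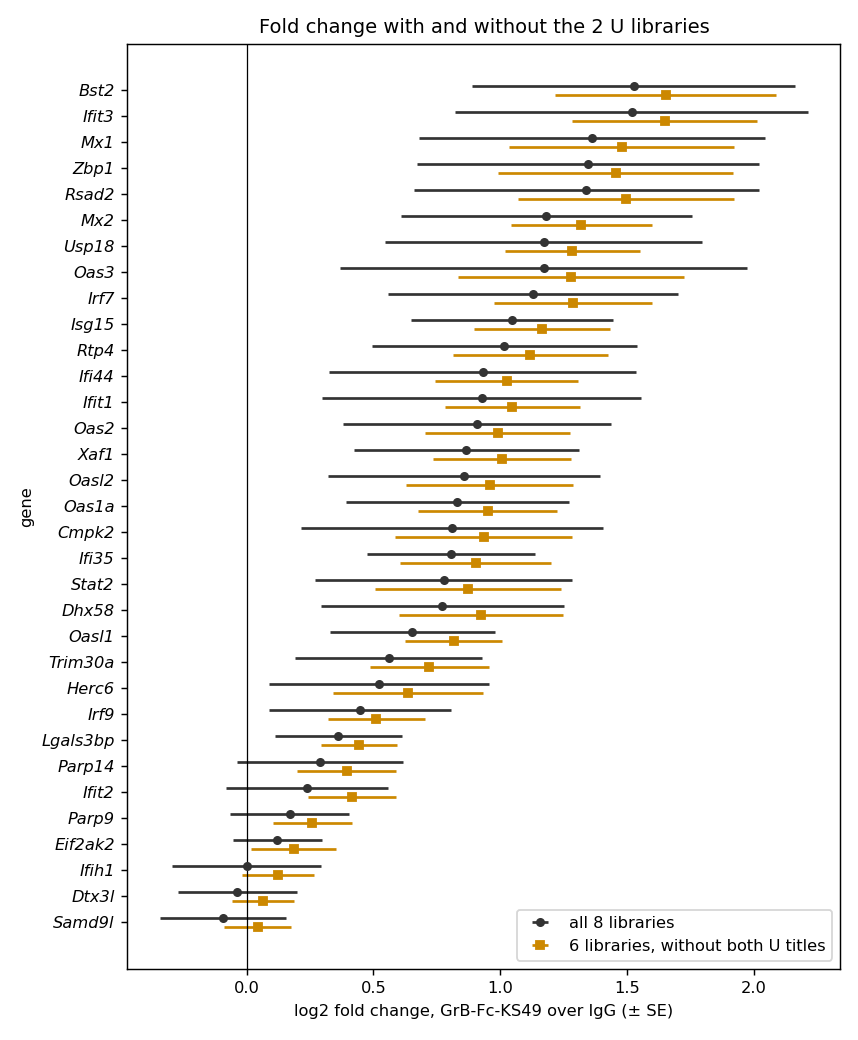
Log2 fold change (GrB-Fc-KS49 over IgG) ± standard error of each of the 33 genes, from all 8 libraries (circles) and from the 6 libraries left without both U titles (squares), ordered by the first. The squares lie to the right of the circles with shorter bars, and the lowest moves from -0.09 to 0.04, both in Samd9l.

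Single libraries moved the results in opposite directions. Without GrB-Fc-KS49 3 the median log2 fold change of the 33 genes was 1.15 and 28 genes had an unadjusted p under 0.05, against 36.7% of all genes (18.8% in the higher direction), with a smallest adjusted p of 0.0761. Without GrB-Fc-KS49 1 the median was 0.39, 29 genes were higher and 0 had an unadjusted p under 0.05, against 28.0% of all genes. Leaving out IgG 1 or IgG 2 also left 0 genes at an unadjusted p under 0.05, against 25.5% and 25.9% of all genes, and IgG 4 left 1, against 29.3%. Leaving out IgG 3, GrB-Fc-KS49 2 or GrB-Fc-KS49 4 left 2 each, against 26.4%, 31.8% and 39.0%. By edgeR's adjusted p 0 of the 33 genes passed without GrB-Fc-KS49 1, against 6.32% of all genes, and 0 without GrB-Fc-KS49 4, against 17.1%.

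Shorter transcripts showed larger differences. Across the 33 genes, Spearman's rho of the log2 fold change with the length of the longest coding transcript was -0.59, and across 14439 protein-coding genes it was -0.46. Both values are across genes, which are no independent replicates. The 8 genes under 2000 bases, which include Isg15 (756 bases), Bst2 (792) and Ifi35 (1362), had a median log2 fold change of 1.11, and the 3 genes at an unadjusted p under 0.05 were all among them. The 17 genes from 2000 to 4000 bases had a median of 0.86. The 8 genes of at least 4000 bases had a median of 0.20, among them Parp14 (7417), Ifih1 (5470), Samd9l (5330) and Dtx3l (5309), while Oas3 (4720) stood at 1.17. The deviation of each library from the gene means went with length over all coding genes in the same way by group, with rho from 0.32 to 0.38 in the controls and -0.42, -0.30, -0.16 and -0.07 in GrB-Fc-KS49 1 to 4.

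After the smooth trend of each library with transcript length and GC content was removed, a step added after the data were seen, rho across the 33 genes was -0.23. All 33 genes then had a positive log2 fold change, with a median of 0.76 against -0.08 over the genes covered, and 0 had an unadjusted p under 0.05, against 25.3% of the genes covered. The range ran from 0.13 in Lgals3bp to 1.43 in Rsad2. Isg15 went from 1.05 to 0.45 and Bst2 from 1.53 to 0.85, while Oas3 stayed at 1.17. In the 3 classes of length the median went from 1.11 to 0.82 below 2000 bases, from 0.86 to 0.80 between 2000 and 4000, and from 0.20 to 0.40 above.

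**Figure D4:**
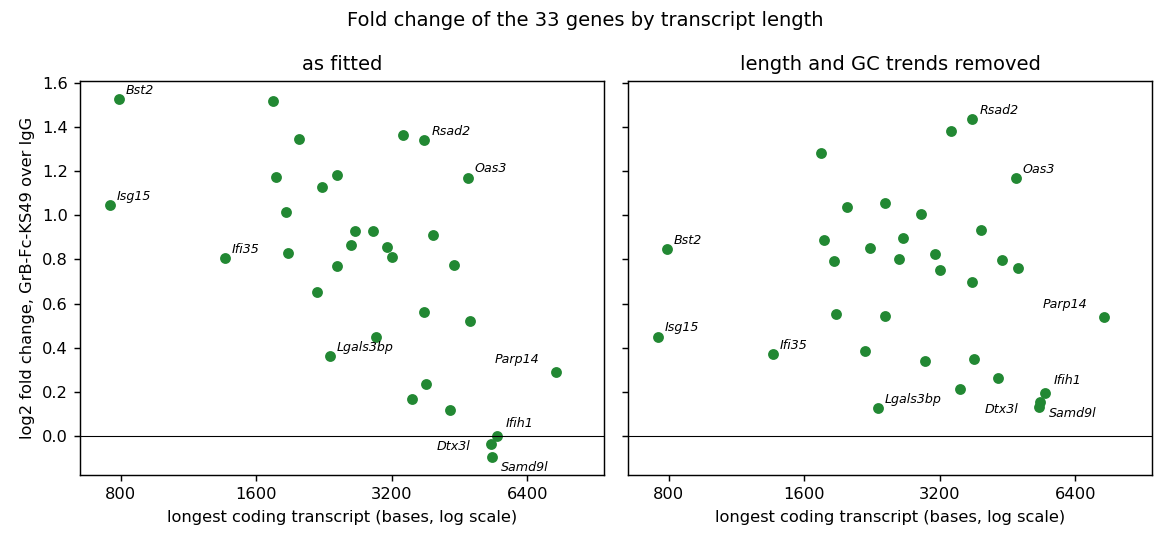
Log2 fold change (GrB-Fc-KS49 over IgG) of the 33 genes against the length of their longest coding transcript (bases, log axis), as fitted (left) and with each library's length and GC trends removed (right). On the left short genes such as Bst2 lie highest and the 3 genes between 5309 and 5470 bases lie at or below 0; on the right all points are above 0.

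Among the ligands of the pathway, Ifnb1, Ifne and Ifnz were too low to test. Ifnb1, which encodes interferon beta, had 3, 0, 3 and 5 counts in IgG 1 to 4 and 16, 17, 0 and 8 counts in GrB-Fc-KS49 1 to 4. GrB-Fc-KS49 3, the lowest tumour in most of the 33 genes, had none, which allows up to 3 counts (counting error only). The genes of interferon alpha and lambda were not analysed here. Ifng, which encodes interferon gamma, was at 0.0121, 0.185, 0.221 and 0.0620 CPM in the controls and at 4.96, 1.09, 0.0595 and 0.261 CPM in the treated tumours. GrB-Fc-KS49 1 stood far above all others, and the fitted log2 fold change was 3.73 (SE 1.32, edgeR adjusted p = 0.0920). The order of the treated libraries was that of the 33 genes.

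Of 10 receptor and kinase genes tested, 0 passed by edgeR's adjusted p, with 2 higher and 3 lower at an unadjusted p under 0.05. Jak1 was at 233, 229, 228 and 207 CPM in the controls and at 142, 176, 172 and 194 CPM in the treated tumours, lower in every treated library, with a log2 fold change of -0.39 (SE 0.10, edgeR adjusted p = 0.0619). Jak2, a kinase of the interferon gamma receptor, was at 135, 134, 129.6 and 119 CPM and 69.6, 91.4, 83.3 and 110.2 CPM, also without overlap. Its log2 fold change was -0.55 with the same adjusted p. That value was the smallest of all genes and was shared by others, among them Ccr9 and Siglech. Jak1 stood at -0.27 and Jak2 at -0.39 with the length and GC trends removed. Ifnar1 had a log2 fold change of -0.25 and Ifnar2 one of 0.32. Of 16 sensors and adaptors upstream of the ligands, 2 were higher and 1 lower at an unadjusted p under 0.05. The lower gene was Tbk1, the kinase that activates IRF3, at a log2 fold change of -0.23, and Irf3 stood at 0.19 and Ifi205 at 0.93. With the length and GC trends removed Irf3 stood at -0.07.

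Of 10 negative regulators, 2 were higher at an unadjusted p under 0.05, Socs1, an inhibitor of JAK kinases, with a log2 fold change of 1.09, and Trex1, a nuclease that removes cytosolic DNA, with 0.85. With the length and GC trends removed these stood at 0.92 and 0.30. In the ISG15 pathway Uba7, its activating enzyme, and Ube2l6, its conjugating enzyme, had log2 fold changes of 0.83 and 0.87 (0.71 and 0.55 with the trends removed), and the ligase Trim25 one of -0.08. All 10 tested paralogs of the 33 had a higher mean in the treated group. Their median log2 fold change was 1.01, and 2 had an unadjusted p under 0.05, Trim30c and Ifi44l. All 5 IFITM genes, which encode membrane proteins that hinder viral entry, were higher in the mean, 3 at an unadjusted p under 0.05, Ifitm2, Ifitm1 and Ifitm10. With the length and GC trends removed Ifitm2 (655 bases) went from a log2 fold change of 0.42 to -0.14, Ifitm3 (678 bases) from 0.59 to 0.02 and Ifitm1 (882 bases) from 1.42 to 0.85, and Ifitm10 (3412 bases) from 1.23 to 1.16. Ifitm1 had a log2 fold change of 1.42 and was at 4.32, 6.64, 7.62 and 6.73 CPM in the controls and 34.4, 17.5, 6.90 and 8.94 CPM in the treated tumours. Of 138 tested genes on all pathway and marker lists, edgeR called 0 at an adjusted p under 0.05 and DESeq2 called 43, against 24.1% of all genes. The counts at an unadjusted p under 0.05 stand beside 35.1% over all genes.

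Genes listed as targets of interferon gamma were ordered much like the 33. All 18 tested had a higher mean in the treated group. Their median log2 fold change was 0.98, and 5 had an unadjusted p under 0.05. IgG 1 and GrB-Fc-KS49 3 were the 2 lowest libraries in 15 of the 18. Cxcl9, a chemokine that binds CXCR3 on effector T cells, was at 1.48, 11.3, 24.8 and 10.2 CPM in the controls and at 241, 87.2, 2.12 and 29.3 CPM in the treated tumours. Psmb9, Ido1 and Ciita, named by their small p, had log2 fold changes of 0.95, 3.26 and 2.22, and 0.50, 2.95 and 2.27 with the length and GC trends removed. Which interferon the levels of the 33 genes follow was not tested.

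Of 12653 protein-coding genes outside the list at a mean of at least 1 CPM, the 10 whose log2 CPM followed the mean of the 33 most closely over the 8 libraries had Pearson's r from 0.989 to 0.996. They were Gm7609, Daxx, Rasa4, Cxcl10, Phf11d, Gbp5, Gbp6, Gm43302, Gbp4 and Gbp3, of which Cxcl10, Gbp5 and Gbp3 were on the interferon gamma list. Daxx, a histone chaperone, followed the order at a small amplitude, from 32.1 CPM in GrB-Fc-KS49 3 to 56.1 CPM in GrB-Fc-KS49 1. Gbp4, a guanylate-binding protein, ran from 10.7 to 343.5 CPM between the same libraries.

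Markers of T cells and several other immune cell types were higher in GrB-Fc-KS49 1 and 2 than in the controls, as 29 of the 33 genes were. The 8 T cell markers summed to 1.70 to 4.80 CPM in the controls and to 49.6, 24.8, 3.84 and 11.7 CPM in GrB-Fc-KS49 1 to 4, the order of the 33 genes, with IgG 1 the lowest control. All 8 were higher in the treated mean at an unadjusted p under 0.05, against 17.3% of all genes in this direction, and none was at 0 in any library. The 6 markers of plasmacytoid dendritic cells, which make much type I interferon, summed to 1.31 to 2.84 CPM in the controls and to 25.9, 14.5, 5.67 and 5.62 CPM. All 4 treated tumours, GrB-Fc-KS49 3 included, lay above every control in this sum. Cox6a2 alone held 12.8 CPM of it in GrB-Fc-KS49 1 and ranked the treated libraries 1, 3, 2, 4, as the skeletal muscle gene Ckm did. Siglech, Ccr9, Smim5 and Pacsin1 were highest in GrB-Fc-KS49 2, and Klk1 in GrB-Fc-KS49 1. The 8 macrophage markers summed to 872 to 1110.2 CPM in the controls and to 2366, 1718, 1171 and 1073 CPM. The 3 complement genes C1qa, C1qb and C1qc, with log2 fold changes of 1.19, 1.17 and 1.14, made up most of this sum in GrB-Fc-KS49 1. With the length and GC trends removed they stood at 0.64, 0.63 and 0.64. Of the other macrophage markers, Fcgr1 had the usual order of libraries of the 33 genes and a log2 fold change of 0.92. Adgre1 had one of 0.31 and Cd68 one of 0.22 (0.75, 0.32 and -0.20 for Fcgr1, Adgre1 and Cd68 with the trends removed). The growth factor receptor gene Csf1r had a log2 fold change of 0.04. The mannose receptor gene Mrc1, highest in both U libraries, had one of -0.39. B cell markers summed to 0.629 to 0.955 CPM in the controls and 1.19 to 5.06 CPM in the treated tumours. NK cell markers summed to 5.94 to 8.33 and 6.44 to 15.7 CPM. Of this sum, Eomes held 4.23 to 6.95 CPM in the controls and 3.93 to 5.22 CPM in the treated tumours. Its log2 fold change was -0.29, while Ncr1, Klrb1c and Klrd1 had 1.33, 1.88 and 2.44.

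Markers of tissues that a dissected tumour can carry along were high in single treated tumours. Skeletal muscle markers summed to 2088 CPM in GrB-Fc-KS49 1 and to 35.5 to 335 CPM in the other treated tumours, with 37.3 to 172 CPM in the controls. Skin markers summed to 1619 CPM in GrB-Fc-KS49 2 and to at most 5.05 CPM elsewhere. Adipocyte markers summed to 94.0 CPM in GrB-Fc-KS49 3 and to at most 28.3 CPM elsewhere. The summed fibroblast markers ran against the 33 genes, with 5256, 6266, 13077 and 9621 CPM in GrB-Fc-KS49 1 to 4. Their control sums ran from 7130 CPM in IgG 3 to 11045 CPM in IgG 1. The collagen genes Col1a1 and Col1a2 made up most of this sum in every library, so it mainly describes them. Dcn ranked the treated libraries 3, 1, 2, 4 from high to low, and Lum ranked them 3, 2, 4, 1. Pdgfra varied little among the controls (86.0 to 89.7 CPM) and was lowest in GrB-Fc-KS49 1 (61.0 CPM). The part of any of these cell types in the levels of the 33 genes was not tested.

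**Figure D5:**
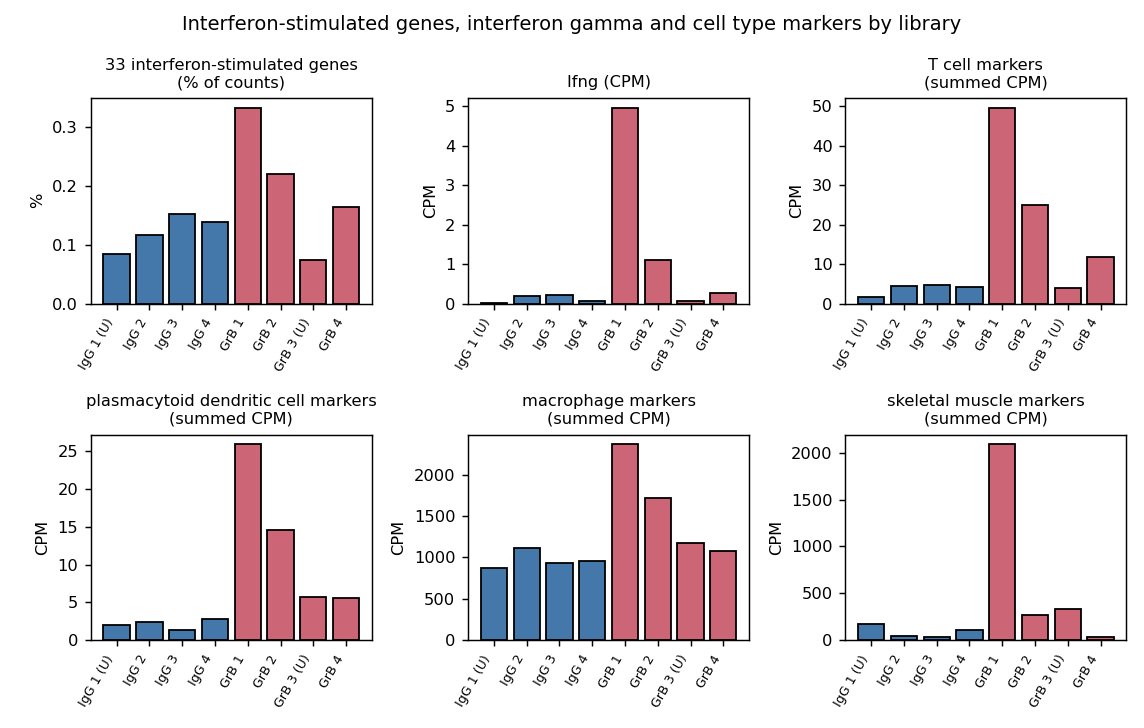
Share of all counts held by the 33 genes (%), CPM of Ifng, and summed CPM of the markers of T cells, plasmacytoid dendritic cells, macrophages and skeletal muscle in each of the 8 libraries (bars from 0; blue IgG, red GrB-Fc-KS49; U marks the title suffix). GrB-Fc-KS49 1 is highest in every panel, and GrB-Fc-KS49 3 is the lowest bar of the first panel but not of the marker panels. In the plasmacytoid dendritic cell panel, Cox6a2 alone holds 12.8 of the 25.9 CPM of GrB-Fc-KS49 1.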

How the data were processed

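RNA was measured in 8 tumour libraries, 4 per group, grouped by the treatment label. Per the labels' protocols, libraries were made with the KAPA Stranded mRNA-Seq kit, which marks strand with dUTP. Per the submitters' processing notes, bcl2fastq 2.19.1.403 and STAR were used, with the GRCm39 genome. Which counter and annotation were used, and whether counting used strand, was not given in the sources used here. Estimated counts per gene were deposited, together with CPM (counts per 1e6 counts of a library, per the file headers). Every gene in these tables has at least 10 counts over all libraries.

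The estimated counts were rounded and filtered with edgeR's filterByExpr, which kept 19718 genes, and scaled by TMM factors. Groups were compared with edgeR 4.0.16 (R 4.3.3) by robust quasi-likelihood tests, adjusted by Benjamini-Hochberg over every tested gene, at a threshold of 0.05. The procedure was tested on simulated counts with known fold changes, drawn independently for each gene. These held no trend with length, no low U libraries and no genes that vary together, so the test does not cover such features. Printed CPM are TMM-scaled. Transcript lengths, GC content and shared 50-base stretches come from the longest coding transcript in GENCODE M21, and promoter windows from RefSeq on GRCm38.p6. Gene coordinates follow the deposited table, 1-based.

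Alternatives were other scaling factors and filters, DESeq2 1.42.0, limma-voom (limma 3.58.1), limma on log2 of the deposited CPM plus 1 or 0.25, leaving out each library or both U libraries, and the U suffix as a covariate. Removal of length and GC trends (mgcv 1.9.3) and the test of the suffix itself were added after seeing the data. The members and lists were chosen with earlier results of these data known. Named are, of each role, up to 3 members with the smallest unadjusted p, the extremes of fold change and abundance, members with an unusual order of libraries, up to 3 genes of each pathway role, up to 2 of each marker role, and the 10 genes most like the members. Genes outside this rule were chosen after their values were seen. They are Cxcl9, Ifnar1, Ifitm3, Oas1f, Oas1g, Col1a1, Col1a2, Lum, Cdh1, Krt8, Lrrc17 and the remaining members. Also among them are Csf1r, Mrc1, C1qb, Fcgr1, Adgre1, Cd68, Eomes, Ncr1, Cox6a2, Siglech, Klk1 and Smim5. Replicate numbers follow accession order and pair nothing.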

Additional observations from a re-analysis of the deposited data

Results flagged for a closer look

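Dixon's ratio is the gap of an extreme library to its nearest neighbour over the whole range of its 4 libraries. It was computed by group for 90 of the genes named in the text and for 13 sums of cell type markers, 206 sets in all. In 16 sets a library lay beyond the critical value, and chance marks about 1 in 20. None of the 66 sets of the 33 genes was among them.

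In the controls, the interferon receptor chain Ifnar2 was at 49.1 CPM in IgG 1 and at 57.5, 58.2 and 58.6 CPM in IgG 2 to 4, a ratio of 0.891. IgG 1 was also the lowest control, far from the rest, in the summed T cell markers (0.839), Lipe (0.892) and Cdh1 (0.886), and the highest in Lrrc17 (0.845). IgG 3 was the lowest control in Epcam (0.934).

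Among the treated tumours, GrB-Fc-KS49 1 stood high in the summed skeletal muscle markers (0.854), Pvalb (0.938) and Ckm (0.886). GrB-Fc-KS49 2 stood high in the summed skin markers (0.997), Krt10 (0.998), Cdh1 (0.978) and Oas1f (0.997). GrB-Fc-KS49 3 stood high in the summed adipocyte markers (0.840), the summed endothelial markers (0.879) and Lrrc17 (0.950).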

How the results depend on the processing

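Of the 33 genes, 0 passed an adjusted p under 0.05 in every setting but DESeq2, where 2 did. Their median log2 fold change was positive in every setting and ran from 0.39 to 1.15 when single libraries were left out (the ends are without GrB-Fc-KS49 1 and without GrB-Fc-KS49 3). Both U libraries stayed the lowest in all 33 genes under the other scaling factors. Of the pathway and marker genes 0 passed with all libraries, 43 in DESeq2, 7 in limma-voom with sample weights, and 0 to 33 when single libraries were left out (6 without GrB-Fc-KS49 1 and 33 without GrB-Fc-KS49 4, where 6.32% and 17.1% of all genes passed).

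Some log2 fold changes reversed their sign, and the cause was not tested. The log2 fold change of Ifih1 (0.0007) was at -0.000143 with RLE factors, -0.016 with no filter, -0.000116 in DESeq2, -0.079 and -0.0964 in limma-voom without and with weights, -0.049 and -0.0528 on log2 of CPM plus 1 and 0.25, and -0.074 with the suffix covariate. With single libraries left out it ran from -0.14 to 0.23, the log2 fold change of Eif2ak2 from -0.0732 to 0.24, Dtx3l from -0.14 to 0.15, Samd9l from -0.24 to 0.11 and Trim25 from -0.14 to 0.035. The log2 fold change of Dtx3l was at 0.019 with upper quartile factors, 0.000125 with the CPM filter, 0.065 without both U libraries and 0.13 with length and GC trends removed. Samd9l was at 0.043 and 0.15 in the last 2 of these settings. With the trends removed Trim25 was at 0.035, Irf3 (0.19) at -0.074, Ifitm2 (0.42) at -0.14 and Pdgfra at 0.0023. No paired analysis was possible because the labels give no replicate numbers.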

Other observations

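Oas1f, a paralog of Oas1a that was too low in most libraries to test, was at 7.16 CPM in GrB-Fc-KS49 2 and at 0 to 0.0250 CPM in the other 7 libraries. In the same library the epidermal keratin Krt10 was at 725 CPM, against 0.230 to 1.97 CPM elsewhere. Both genes were picked after their values were seen, and no test was made.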
